A study of Caenorhabditis elegans with 18 samples.

Results

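The pals genes are a large family of C. elegans genes that share a protein signature. The members were all genes whose WormBase symbol begins with pals- and a number, after each sequence name in the deposited counts was matched to the annotation. The annotation holds 38 such genes, and 36 of them were among the 20505 gene models counted; pals-10 and pals-21 had no row. Of the 36 members, 25 passed the low-count filter used for testing and 11 did not. PolyA RNA was sequenced from whole-animal lysates at the L4 larval stage in 18 libraries, 3 for each of 6 groups. The strains were N2, the laboratory wild type, the mutant carrying the n3441 allele of lin-65, and the mutant carrying the ok2307 allele of met-2. Each strain was kept at 20C from hatching on bacteria that carried the empty RNAi vector (EV) or that delivered RNAi against cco-1, so the EV groups shared the RNAi vector and the bacterial diet with the cco-1 groups. The labels do not say whether libraries of a group came from separate cultures, so the p-values measure only the spread between these libraries.

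Most pals genes have no known biochemical function. Several are transcribed strongly in intestinal cells when C. elegans is infected by microsporidia or the Orsay virus, in a programme called the intracellular pathogen response, and pals-5 is its usual reporter. Within the family pals-22 represses that programme and its neighbour pals-25 activates it, while pals-17 is a second repressor that is opposed by pals-16 and pals-20. The met-2 gene encodes a histone H3 lysine 9 methyltransferase related to SETDB1, and lin-65 encodes a nuclear partner of MET-2. The cco-1 gene, named cox-5B in the annotation, encodes a subunit of mitochondrial cytochrome c oxidase, and its RNAi induces the mitochondrial unfolded protein response.

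Library totals ran from 5141303 to 19261705 counts, so that 3 reads corresponded to 0.153 to 0.510 CPM, the counts per 1e6 counts of library size scaled by the trimmed mean of M values (TMM). The RNAi target cox-5B was lower in every cco-1 library than in every EV library of the same strain, for example 283 to 311 against 658 to 754 CPM in N2. On EV the met-2 transcript was 14.9 to 22.8 CPM in the met-2 mutant against 37.1 to 42.2 CPM in N2, and the lin-65 transcript 5.6 to 8.51 CPM in the lin-65 mutant against 12 to 14.2 CPM in N2. Replicate 1 of lin-65 on EV and replicate 1 of met-2 on cco-1 RNAi stood apart from their groups, with mean correlations of 0.920 and 0.892 with the other libraries of the group; in the 4 other groups the values were 0.965 to 0.983. The strain field of replicate 1 of lin-65 on EV reads N2, although its title and source read lin-65. Results that rest on these libraries are given with and without them. All 38 tissue markers checked, from intestine to germline, had reads in every library (at least 10).

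The members were grouped on the chromosomes. On the WBcel235 assembly, 14 lay on chromosome I, 13 on III, 2 on IV and 7 on V; the build behind the counts is not given in the sources used here. With a gap of under 20000 bases from start to start, 30 members fell into 6 clusters and 6 stood alone. The largest cluster, chromosome I from 13104251 to 13144623, held 12 members, in order pals-2, pals-3, pals-12, pals-4, pals-8, pals-11, pals-7, pals-5, pals-9, pals-6, pals-14 and pals-15. On chromosome III, pals-24, pals-23, pals-22 and pals-25 lay from 120435 to 137975, pals-40, pals-20, pals-17, pals-16, pals-19 and pals-18 from 1376945 to 1406263, and pals-26, pals-27 and pals-28 from 4375154 to 4387757. The remaining clusters were pals-29 with pals-30 on chromosome IV, and pals-37, pals-39 and pals-38 on chromosome V from 12437440 to 12446995. The members are paralogs, and how the counting treated reads that match more than 1 of them is not stated. The models of pals-3 and pals-12 share 2287 bases on 1 strand, so their counts are uncertain; pals-4 (with pals-3), pals-24 (with C29F9.12), pals-20 (with Y82E9BR.5), pals-32 (with str-46) and pals-37 (with anr-30) overlap a gene on the opposite strand, and the strand setting of the counting is not stated.

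In N2 on EV the family divided into a few genes with steady reads and many that were almost silent. The highest level per kilobase of exon belonged to pals-17, the repressor, with 26.4 ± 0.459 CPM per kb (SD, n = 3). It was followed by pals-24 (8.46 ± 2.36), pals-19 (8.20 ± 1.84), pals-23 (6.62 ± 0.406), pals-16 (4.34 ± 0.306) and pals-22 (4.1 ± 1.16 CPM per kb). The values of pals-24, pals-19 and pals-23 lay within their SDs of one another, and so did those of pals-16 and pals-22. These 6 genes all belong to the first 2 chromosome III clusters. In the same libraries 10 of the 36 members had at most 3 reads over the whole group of 42349902 counts, and pals-29, pals-38 and pals-40 had none. In N2 on cco-1 RNAi 15 members had at most 3 reads, and pals-5, pals-27, pals-28 and pals-29 had none. In every mutant group each member had at least 1 read: the members with at most 3 reads numbered 2 and 3 in lin-65 and 4 and 4 in met-2, on EV and on cco-1 RNAi. The group totals were 37063778 counts in N2 cco-1, 40926834 and 32571757 for lin-65, and 45612722 and 38982294 for met-2.

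**Figure D1:**
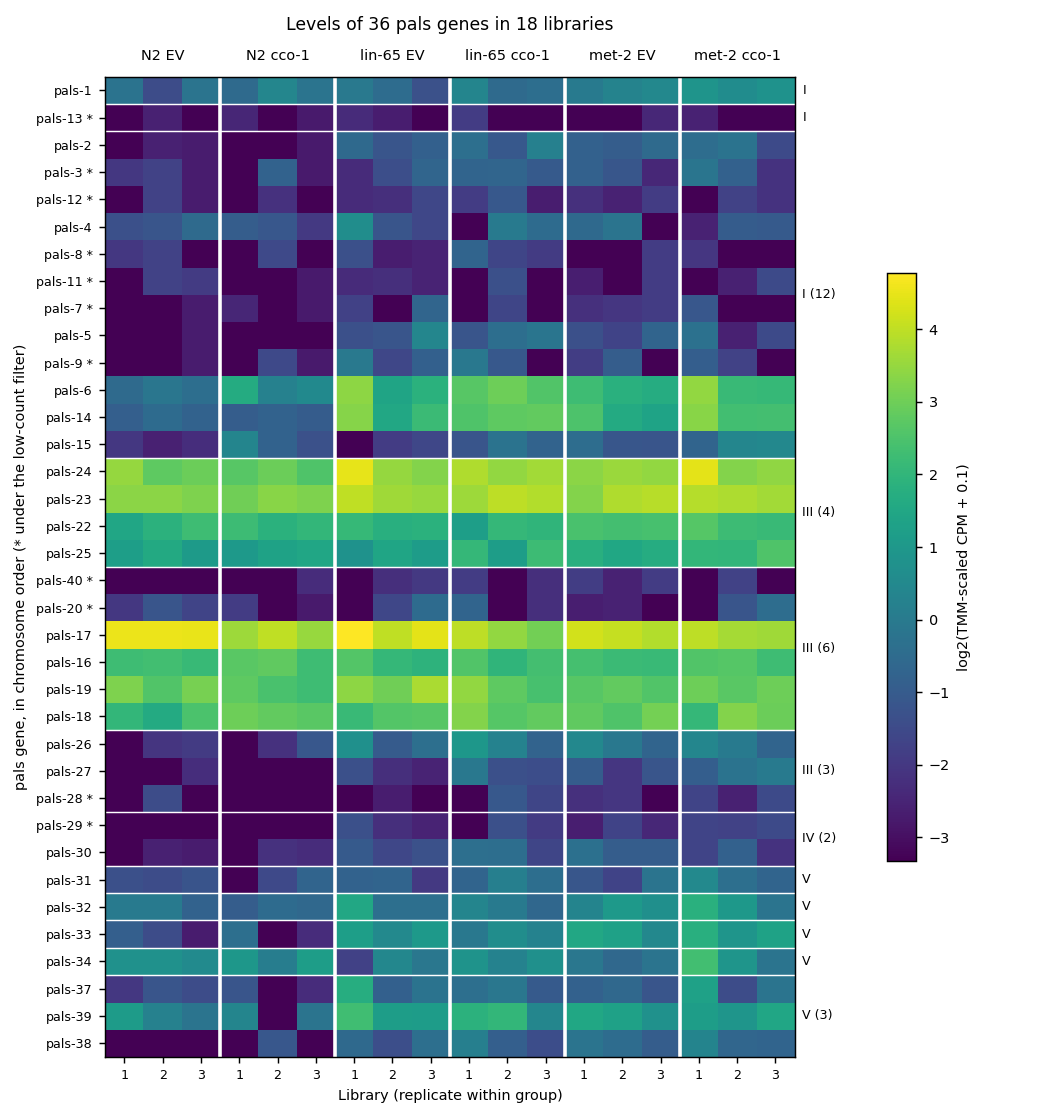
Level of each of the 36 pals genes (rows, in chromosome order, with the chromosome and cluster size at the right) in each of the 18 libraries (columns, 3 per group), as log2(TMM-scaled CPM + 0.1); white lines separate groups and clusters, and an asterisk marks the 11 members under the low-count filter. The chromosome III rows from pals-24 to pals-25 and from pals-17 to pals-18 are bright in all 6 groups, while pals-6, pals-14, pals-33 and pals-5 are dark in the N2 columns and brighter in the mutant ones.

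On EV a subset of the pals genes was higher in each mutant than in N2. In lin-65, 3 of the 36 members passed an adjusted p of 0.05 (edgeR quasi-likelihood test, Benjamini-Hochberg over 15110 genes), all higher: pals-14, pals-6 and pals-33. They made up 8.33% of the members, against 1.07% of all tested genes called higher. In met-2, 8 members rose, namely pals-14, pals-33, pals-6, pals-38, pals-2, pals-30, pals-26 and pals-5, or 22.2% of the members against 15.3% of all tested genes. Here and below the shares of called members are over all 36, of which only 25 were tested and could be called. The shares of all genes are over tested genes, so the bases differ. No member fell in either mutant, where 0.351% and 15.3% of tested genes were called lower. DESeq2 called 4 members higher in lin-65 (1.48% of its tested genes) and 7 in met-2 (16.3%). In whole animals a change in RNA per cell and a change in the number of cells of a type cannot be told apart. Over all 36 members, fitted without the filter, the median log2 fold change was 0.75 in lin-65 and 0.83 in met-2, beside 0.03 and 0 over all gene models, and 0.65 and 0.75 with members absent from N2 set at their bounds. The mutants were compared with the same 3 N2 libraries. Every library of the mutant lay above every N2 library for 13 members in lin-65 and 18 in met-2, or 36.1% and 50% of the 36, against 6.44% and 23.9% of the gene models with a read. The reverse held for 1 and 3 members, against 5.16% and 20.9%. Leaving out any 1 of the N2 EV replicates 1, 2 and 3 lowered the lin-65 count to 1, and leaving out met-2 cco-1 replicate 1, which is outside the contrast, raised it to 5; without lin-65 EV replicate 1 and met-2 cco-1 replicate 1 together the counts were 4 higher in lin-65, with 2.33% of tested genes higher, and 11 higher and 1 lower in met-2, with 25.4% and 23.7%.

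On cco-1 RNAi 3 members were higher in lin-65 than in N2, pals-14, pals-2 and pals-5, or 8.33% of the 36 against 0.635% of tested genes. In met-2, 11 members rose: pals-14, pals-2, pals-27, pals-33, pals-6, pals-5, pals-32, pals-24, pals-38, pals-37 and pals-25. They made up 30.6% of the members, against 11.2% of tested genes called higher. No member fell in either mutant, where 0.477% and 9.59% of tested genes were called lower. The median over all 36 was 1.54 in lin-65 and 1.55 in met-2, beside 0 and 0.03 over all gene models, and 1.36 and 1.49 with members absent from N2 at their bounds. All mutant libraries lay above all N2 libraries for 12 members in lin-65 and 18 in met-2, where 11.4% and 16.4% of gene models did so. DESeq2 called 6 members higher in lin-65 and 14 in met-2, where 0.929% and 12.1% of its tested genes were. The lin-65 count was 1 without lin-65 cco-1 replicate 3, and the met-2 count was 6, 5 and 5 without N2 cco-1 replicate 1, 2 and 3, and 4 without met-2 cco-1 replicate 1. Without both libraries that stood apart the counts were 6 and 7, with 1.68% of tested genes called higher in lin-65 and 28.7% called in either direction in met-2. With only the 2 groups compared in the fit, the met-2 count was 2, where 9.25% of tested genes were called.

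**Figure D2:**
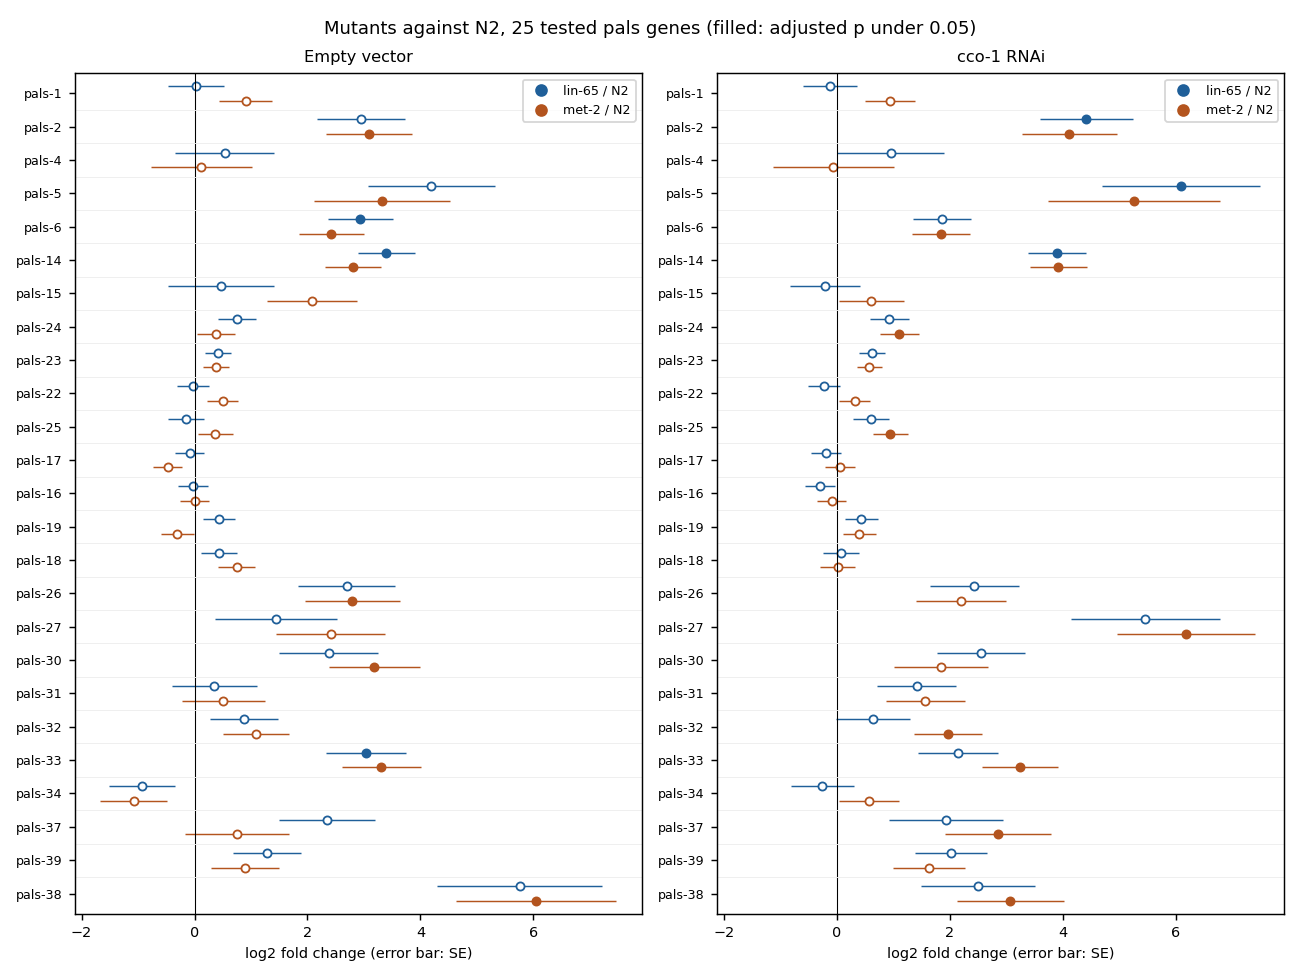
Log2 fold change (points) with its SE (bars) of the 25 tested pals genes in lin-65 (blue) and met-2 (orange) against N2, on EV at the left and on cco-1 RNAi at the right; filled points have an adjusted p under 0.05. The filled points all lie to the right of 0, and pals-14 is filled in all 4 comparisons. The fitted values of pals-38 on EV and of pals-5 and pals-27 on cco-1 RNAi are set against N2 groups with no reads and are not bounds.

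Across these 4 comparisons 13 members were called at least once. All 13 were called in met-2 on at least 1 diet, 5 of them also in lin-65, and pals-14 in every comparison. Of the 13, 11 had a mean below 1 CPM in N2 on EV, as did 4 of the 12 tested members that were never called; low genes could pass the filter only through a group in which they were higher, so these counts are a description.

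The genes pals-14 and pals-6 are neighbours in the chromosome I cluster, and their individual roles are not established. The level of pals-14 was 0.445, 0.610 and 0.490 CPM in the N2 EV replicates 1 to 3, 9.74, 2.78 and 4.54 CPM in lin-65 EV and 5.63, 2.97 and 2.49 CPM in met-2 EV. On cco-1 RNAi it was 0.421, 0.485 and 0.409 CPM in N2, 5.78, 6.69 and 7.08 CPM in lin-65, with 10, 4.97 and 5.01 CPM in met-2. All 12 mutant libraries lay above all 6 N2 libraries. The log2 fold changes were 3.40 ± 0.50 (SE; adjusted p = 0.00105) in lin-65 and 2.81 ± 0.50 (adjusted p = 0.00101) in met-2 on EV, and 3.89 ± 0.51 (adjusted p = 0.000290) and 3.93 ± 0.51 (adjusted p = 8.33e-05) on cco-1 RNAi. The call held in these 4 comparisons under every alternative run. Without the libraries that stood apart, the lin-65 EV value was 2.78 and the met-2 cco-1 value 3.46.

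For pals-6 the levels were 0.593, 0.813 and 0.654 CPM in N2 EV, 10.4, 2.55 and 3.48 CPM in lin-65 EV and 4.69, 3.46 and 3.17 CPM in met-2 EV. On cco-1 RNAi they were 3.03, 1.09 and 1.33 CPM in N2, 6.29, 7.88 and 5.85 CPM in lin-65, with 11, 4.43 and 4.24 CPM in met-2. Mutant and N2 libraries did not overlap within either diet, while N2 replicate 1 on cco-1 RNAi lay within the range of lin-65 on EV. On EV pals-6 rose by 2.94 ± 0.57 in lin-65 (adjusted p = 0.0107), and the met-2 value was 2.42 ± 0.57 (adjusted p = 0.00556). On cco-1 RNAi the met-2 value was 1.85 ± 0.51 (adjusted p = 0.0168) and the lin-65 value 1.87 ± 0.52 (adjusted p = 0.112). The lin-65 cco-1 difference was called by DESeq2 (adjusted p = 0.0407) and by edgeR without both libraries that stood apart (0.00232). It was also called with only the 2 groups in the fit (0.0234) and with a replicate block (0.0115). Leaving out lin-65 EV replicate 1 or met-2 cco-1 replicate 1 alone gave it as well (0.0258 and 0.0481). Without both libraries that stood apart the lin-65 EV value was 2.1 (adjusted p = 0.00567) and the met-2 cco-1 value 1.20 (adjusted p = 0.0194). The lin-65 EV call was lost without N2 EV replicate 1, 2 or 3 (adjusted p = 0.0526, 0.0608 and 0.0836) and with only the 2 groups in the fit (0.112). The met-2 cco-1 call was lost without N2 cco-1 replicate 2 or 3 (adjusted p = 0.0771 and 0.0781) and without met-2 cco-1 replicate 1 alone, with a value of 1.20 (adjusted p = 0.104). Replicate 1 of lin-65 EV and replicate 1 of met-2 cco-1 were the highest of their groups for both genes.

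The genes pals-2 and pals-5, the reporter, lie in the same cluster but are not neighbours, and both were at or near 0 in N2. The 3 N2 EV libraries held 0, 0.0678 and 0.0545 CPM of pals-2 and the N2 cco-1 libraries 0, 0 and 0.0511 CPM. The lin-65 levels were 0.585, 0.340 and 0.454 CPM on EV and 0.680, 0.372 and 1.06 CPM on cco-1 RNAi, and those of met-2 were 0.469, 0.424 and 0.600 CPM and 0.649, 0.749 and 0.257 CPM. No N2 library reached any mutant library. With 2 reads in N2 on EV, the pooled ratio of reads per count was 8.73 in lin-65 (95% interval 2.09 to 77.6) and 9.76 in met-2 (2.39 to 85.9); with 1 read in N2 on cco-1 RNAi it was 29.8 (4.92 to 1218) and 24 (3.88 to 991). These intervals cover counting error only. The adjusted p was 0.0788 in lin-65 and 0.00749 in met-2 on EV, and 0.00792 and 0.00252 on cco-1 RNAi; the lin-65 cco-1 call was lost without N2 cco-1 replicate 1 (adjusted p = 0.0532).

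For pals-5, the 6 N2 libraries held 1 read, in EV replicate 3 (0.0545 CPM). The levels were 0.292, 0.340 and 1.21 CPM in lin-65 EV, 0.340, 0.669 and 0.780 CPM in lin-65 cco-1, 0.293, 0.212 and 0.514 CPM in met-2 EV and 0.721, 0.0681 and 0.257 CPM in met-2 cco-1. Every mutant library thus had pals-5 reads, 25, 25, 14 and 13 in the 4 groups, and each lay above the N2 libraries. The pooled ratio on EV was 24.2 in lin-65 (95% interval 3.97 to 995; adjusted p = 0.0903) and 13.0 in met-2 (1.98 to 550; adjusted p = 0.0485). By edgeR the lin-65 EV difference was called without met-2 cco-1 replicate 1 (adjusted p = 0.0432) and without both libraries that stood apart (0.0207). Against a floor of 3 reads over the N2 cco-1 group, pals-5 was at least 8.87-fold higher in lin-65 (adjusted p = 0.0484) and at least 4.73-fold higher in met-2 (adjusted p = 0.0230). Of the 13 met-2 reads on cco-1 RNAi, 10 were in replicate 1, which stood apart; the other libraries held 1 and 2 reads, no more than the floor, so no bound is given without it. Of the 18 libraries, each left out in turn, 13 ended the met-2 EV call (adjusted p from 0.0510 to 0.154), 14 ended the lin-65 cco-1 call (0.0507 to 0.231) and 4, N2 cco-1 replicates 1 to 3 and met-2 cco-1 replicate 1, ended the met-2 cco-1 call (0.0524 to 0.127). The libraries that ended both the met-2 EV and the lin-65 cco-1 call were N2 EV, N2 cco-1, lin-65 cco-1 and met-2 EV replicates 1, 2 and 3 and met-2 cco-1 replicate 3, and lin-65 EV replicate 2 also ended the lin-65 cco-1 call. Without N2 EV replicate 1, 2 or 3 the adjusted p of the met-2 EV call was 0.101, 0.154 and 0.0711.

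**Figure D3:**
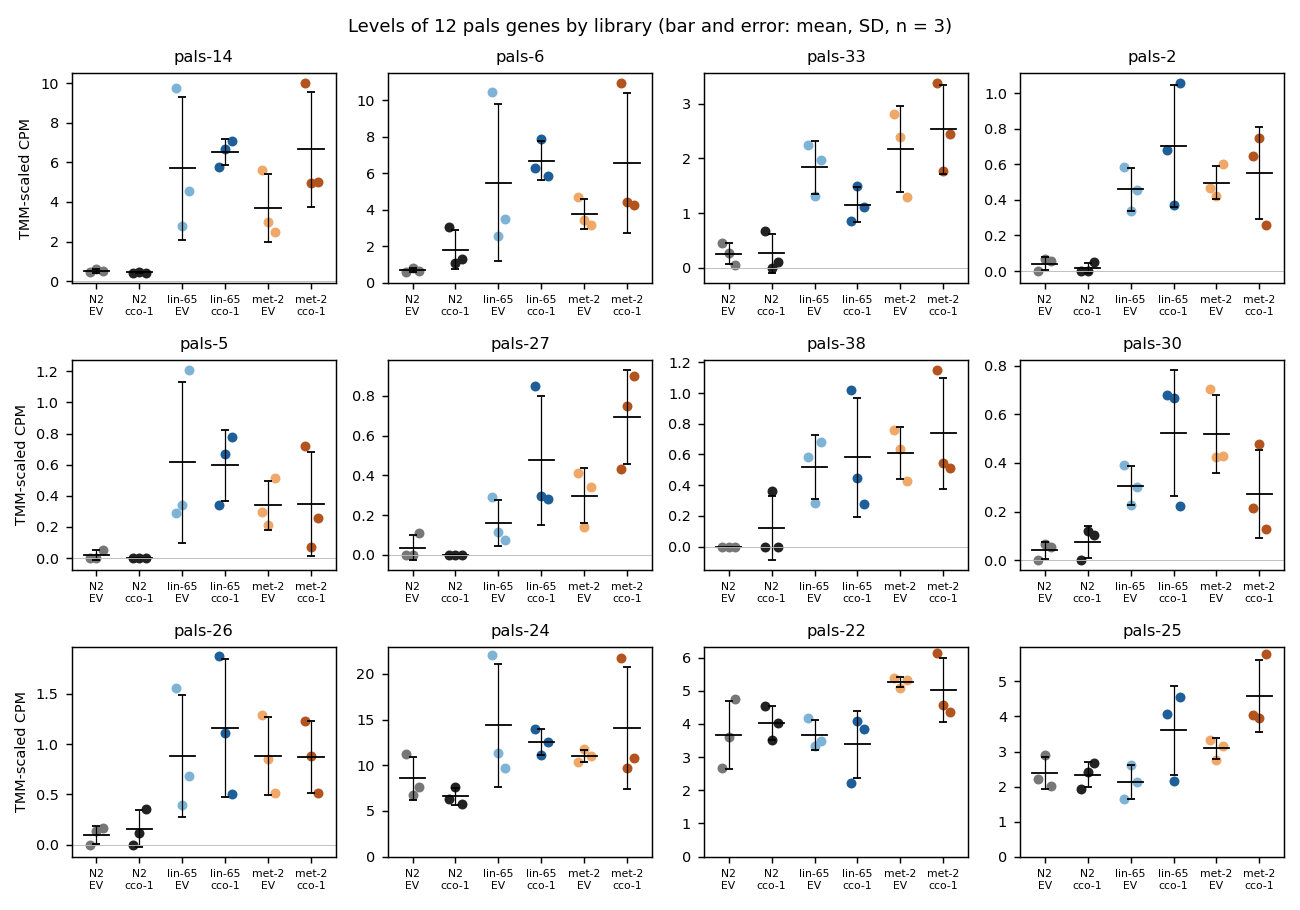
TMM-scaled CPM of 12 pals genes in each library (points), by group, with the group mean and SD (n = 3); each panel has its own linear axis from 0. For pals-14, pals-2 and pals-5 every mutant point lies above every N2 point, and for pals-22 the groups lie between 2.21 and 6.13 CPM.

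Among the genes outside the chromosome I cluster, pals-33 stands alone on chromosome V and was called in both mutants. Its levels were 0.445, 0.271 and 0.0545 CPM in N2 EV, 2.24, 1.31 and 1.97 CPM in lin-65 EV and 2.81, 2.4 and 1.29 CPM in met-2 EV. On cco-1 RNAi they were 0.674, 0 and 0.102 CPM in N2, 0.850, 1.49 and 1.11 CPM in lin-65, with 3.39, 1.77 and 2.44 CPM in met-2. Mutant and N2 libraries did not overlap on either diet. The log2 fold change in met-2 was 3.30 ± 0.70 on EV (adjusted p = 0.00302) and 3.24 ± 0.67 on cco-1 RNAi (adjusted p = 0.00284), and both calls held under every alternative run. In lin-65 it was 3.04 ± 0.71 on EV (adjusted p = 0.0393) and 2.15 ± 0.71 on cco-1 RNAi (adjusted p = 0.219). By edgeR the lin-65 cco-1 difference was called without N2 cco-1 replicate 1 (adjusted p = 0.0351). The lin-65 EV call was lost when any of 10 libraries was left out, with adjusted p from 0.0509 to 0.256: N2 EV replicates 1, 2 and 3, lin-65 EV replicates 1 and 3, lin-65 cco-1 replicates 2 and 3, and met-2 EV replicates 1, 2 and 3.

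The chromosome III neighbours pals-26 and pals-27 were each near 0 in N2. The levels of pals-26 were 0, 0.136 and 0.163 CPM in N2 EV, 1.56, 0.397 and 0.681 CPM in lin-65 EV and 1.29, 0.848 and 0.514 CPM in met-2 EV, with no overlap between N2 and either mutant. On cco-1 RNAi they were 0, 0.121 and 0.358 CPM in N2, 1.87, 1.11 and 0.501 CPM in lin-65, with 1.23, 0.885 and 0.514 CPM in met-2, again without overlap. The met-2 EV difference was 2.79 ± 0.84 on the log2 scale (adjusted p = 0.0200), lost without N2 EV replicate 1 or 2 or met-2 EV replicate 1 (adjusted p = 0.0566, 0.0675 and 0.0889); the other 3 differences had adjusted p of 0.174 (lin-65 EV), 0.212 (lin-65 cco-1) and 0.0561 (met-2 cco-1). For pals-27, N2 held 0, 0 and 0.109 CPM on EV and no read on cco-1 RNAi. In lin-65 it held 0.292, 0.113 and 0.0757 CPM on EV and 0.850, 0.297 and 0.279 CPM on cco-1 RNAi. In met-2 it held 0.410, 0.141 and 0.343 CPM on EV and 0.432, 0.749 and 0.899 CPM on cco-1 RNAi, where met-2 was at least 8.73-fold above the N2 floor (adjusted p = 0.00255) and lin-65 at least 4.96-fold (adjusted p = 0.0639). The met-2 cco-1 call of pals-27 held under every alternative in which the gene was tested. Its lin-65 cco-1 difference was called by DESeq2 (adjusted p = 0.0411) and by edgeR without both libraries that stood apart (0.0340). The met-2 cco-1 difference of pals-26 was called by DESeq2 (0.0412). By edgeR it was called without N2 cco-1 replicate 3 (0.0339) or lin-65 EV replicate 1 or 2 (0.0383 and 0.0498).

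On chromosome V, pals-38 had no read in N2 on EV and 0, 0.364 and 0 CPM in N2 on cco-1 RNAi. It had 0.585, 0.284 and 0.681 CPM in lin-65 EV, 0.762, 0.636 and 0.429 CPM in met-2 EV, 1.02, 0.446 and 0.279 CPM in lin-65 cco-1 and 1.15, 0.545 and 0.514 CPM in met-2 cco-1. On EV the level was at least 6.47-fold above the N2 floor in lin-65 (adjusted p = 0.0726) and at least 8.37-fold in met-2 (adjusted p = 0.00627). The lin-65 EV difference was called by DESeq2 (adjusted p = 0.0197). By edgeR it was called without N2 cco-1 replicate 2 (0.0319) or met-2 cco-1 replicate 1 (0.04995). With 3 N2 reads in 1 library, the pooled ratio on cco-1 RNAi was 10.2 in met-2 (95% interval 3.15 to 52.4; adjusted p = 0.0313), and this call was lost without N2 cco-1 replicate 1 or 3 or met-2 cco-1 replicate 1 (adjusted p = 0.113, 0.151 and 0.105). Its neighbour pals-37 had 0.337, 0 and 0.102 CPM in N2 cco-1 and 2.38, 0.272 and 0.771 CPM in met-2 cco-1, so that the groups overlapped. The difference was 2.86 ± 0.94 (adjusted p = 0.0394). Without met-2 cco-1 replicate 1 it was 1.53 (adjusted p = 0.316), and without N2 cco-1 replicate 2 or 3 or met-2 EV replicate 1 the adjusted p was 0.118, 0.145 and 0.0510. On EV pals-37 had 0.148, 0.339 and 0.272 CPM in N2, 3.22, 0.454 and 0.757 CPM in lin-65 (2.34 ± 0.85, adjusted p = 0.280) and, in met-2, 0.469, 0.565 and 0.343 CPM (0.75 ± 0.92, adjusted p = 0.551), and in lin-65 cco-1 it had 0.680, 0.817 and 0.390 CPM.

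On chromosome IV, pals-30 had 0, 0.0678 and 0.0545 CPM in N2 EV, 0.390, 0.227 and 0.303 CPM in lin-65 EV and 0.703, 0.424 and 0.429 CPM in met-2 EV. The pooled ratio to N2 was 10.7 in met-2 (95% interval 2.64 to 93.5; adjusted p = 0.00852) and 5.82 in lin-65 (1.3 to 53.5; adjusted p = 0.292). The met-2 call held under every alternative in which pals-30 was tested. On cco-1 RNAi it had 0, 0.121 and 0.102 CPM in N2, 0.680, 0.669 and 0.223 CPM in lin-65, with 0.216, 0.477 and 0.128 CPM in met-2, with adjusted p of 0.180 and 0.124.

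Against these low genes, pals-32 and pals-24 had measurable N2 levels and smaller differences. The levels of pals-32 were 0.421, 0.606 and 0.562 CPM in N2 cco-1 and 3.46, 1.91 and 0.771 CPM in met-2 cco-1, a difference of 1.98 ± 0.60 (adjusted p = 0.0271). The call was lost without N2 cco-1 replicate 1, 2 or 3 (adjusted p = 0.0916, 0.0666 and 0.0791), and without met-2 cco-1 replicate 1 the difference was 1.36 (adjusted p = 0.140). In the other groups pals-32 held 0.890, 0.881 and 0.490 CPM (N2 EV), 2.83, 0.681 and 0.681 CPM (lin-65 EV), 1.19, 0.892 and 0.557 CPM (lin-65 cco-1) and 1.17, 1.98 and 1.54 CPM (met-2 EV). No other difference of pals-32 was called in the edgeR fit of all 18 libraries. Its met-2 EV difference was called by edgeR without both libraries that stood apart (adjusted p = 0.0417) and with only the 2 groups in the fit (0.0396). For pals-24 the levels were 6.32, 7.64 and 5.78 CPM in N2 cco-1 and 21.8, 9.67 and 10.8 CPM in met-2 cco-1, a difference of 1.11 ± 0.34 (adjusted p = 0.0295). Without met-2 cco-1 replicate 1 it was 0.60 (adjusted p = 0.203), and without N2 cco-1 replicate 1, 2 or 3 the adjusted p was 0.0863, 0.0561 and 0.104. In N2 EV, lin-65 EV, met-2 EV and lin-65 cco-1 the means were 8.56 ± 2.39, 14.4 ± 6.76, 11 ± 0.706 and 12.5 ± 1.43 CPM (SD, n = 3), with lin-65 EV replicate 1 at 22.1 CPM. The lin-65 cco-1 difference of pals-24 was called by edgeR without both libraries that stood apart (adjusted p = 0.0246) and with only the 2 groups in the fit (0.0403).

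Of the regulators within the family, pals-25 was called in 1 comparison and pals-22, pals-17 and pals-16 in none. The repressor gene pals-22 held 2.67, 3.59 and 4.74 CPM in N2 EV, 4.19, 3.35 and 3.48 CPM in lin-65 EV and 5.39, 5.09 and 5.31 CPM in met-2 EV. On cco-1 RNAi it held 4.55, 3.52 and 4.04 CPM in N2, 2.21, 4.09 and 3.84 CPM in lin-65, with 6.13, 4.56 and 4.37 CPM in met-2. The met-2 libraries lay above the N2 libraries on EV, by 0.50 ± 0.28 on the log2 scale (adjusted p = 0.175), and the lin-65 value was -0.03 ± 0.28 (adjusted p = 0.991); pals-22 was called in none of the 10 comparisons. The activator gene pals-25 held 2.22, 2.91 and 2.02 CPM in N2 EV, 1.66, 2.61 and 2.12 CPM in lin-65 EV and 3.34, 2.76 and 3.17 CPM in met-2 EV. On cco-1 RNAi it held 1.94, 2.43 and 2.66 CPM in N2, 4.08, 2.15 and 4.57 CPM in lin-65, with 4.04, 3.95 and 5.78 CPM in met-2. It was called in met-2 against N2 on cco-1 RNAi (0.95 ± 0.31, adjusted p = 0.0397), where the groups did not overlap, and in no other comparison. That call was lost without N2 cco-1 replicates 1, 2 or 3, met-2 EV replicates 1 or 2, or met-2 cco-1 replicates 1 or 3 (adjusted p from 0.0502 to 0.138).

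The second set of regulators lies in the chromosome III cluster of 6. The repressor gene pals-17 had means of 22.9 ± 0.399 CPM in N2 EV, 21.7 ± 5.66 CPM in lin-65 EV and 16.5 ± 2.21 CPM in met-2 EV (SD, n = 3). The met-2 libraries lay below the N2 ones by 0.48 ± 0.26 on the log2 scale (adjusted p = 0.167). Its opponent pals-16 held 4.67 ± 0.328, 4.61 ± 1.25 and 4.66 ± 0.434 CPM in the same groups, with log2 differences of -0.02 ± 0.26 in lin-65 and 0.00 ± 0.26 in met-2 (adjusted p = 0.993 and 0.995). The other opponent, pals-20, had 10, 12 and 2 reads in the 3 EV groups and was under the filter. Summed over the 6 genes, this cluster gave 39.9 ± 2.35, 42.9 ± 7.28 and 34.7 ± 2.13 CPM on EV and 32.0 ± 4.13, 32.1 ± 9.46 and 34.1 ± 1.36 CPM on cco-1 RNAi in N2, lin-65 and met-2. The sum over the 12 chromosome I genes behaved otherwise: it was 2.28 ± 0.469, 14.5 ± 8.69 and 10.1 ± 2.80 CPM on EV and 3.70 ± 1.35, 17.1 ± 1.95 and 16.5 ± 7.10 CPM on cco-1 RNAi. Most of each mutant sum came from pals-6 and pals-14, with means of 5.49 and 5.69 CPM in lin-65 EV and 3.77 and 3.69 CPM in met-2 EV. Other members stayed low, such as pals-11 at 0.122, 0.0955 and 0.0767 CPM in N2, lin-65 and met-2 on EV. The chromosome I sums of N2 and the mutants did not overlap, at 1.78 to 5.14 CPM over the 6 N2 libraries and 7.32 to 24.6 CPM over the 12 mutant ones. Of the 6 tested genes of the chromosome I cluster, pals-2, pals-5, pals-6 and pals-14 were called and pals-4 and pals-15 were not; of the 4 tested genes of the cluster with pals-17, none was called in any comparison.

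The rest of the family is described by its ranges. Among tested members never called, pals-39 held 1.31 ± 0.685 CPM in N2 EV, 3.02 ± 1.52 CPM in lin-65 EV and 2.26 ± 0.576 CPM in met-2 EV (adjusted p = 0.480 and 0.265). For pals-23 the values were 9.85 ± 0.604, 13.2 ± 2.3 and 12.8 ± 2.80 CPM (adjusted p = 0.569 and 0.204). On cco-1 RNAi DESeq2 called pals-39 higher in lin-65 and met-2 (adjusted p = 0.0490 and 0.0342) and pals-23 higher in met-2 (0.0353). The level of pals-34 was lower in every EV library of both mutants than in N2 EV, at 0.759 ± 0.531 CPM in lin-65, with 0.719 ± 0.136 CPM in met-2 against 1.54 ± 0.154 CPM (adjusted p = 0.660 and 0.169). By edgeR pals-34 was the member called lower in met-2 on EV without the libraries that stood apart (-1.07 ± 0.41, adjusted p = 0.0364). It was also called lower there with only the 2 groups in the fit (-1.05 ± 0.37, adjusted p = 0.0333). For pals-1, pals-4, pals-31, pals-18 and pals-19 the adjusted p against N2 on EV lay between 0.0851 and 0.996, and for pals-15 it was 0.933 in lin-65 and 0.0561 in met-2. By edgeR without both libraries that stood apart, pals-15 and pals-18 were called higher in met-2 on EV (adjusted p = 0.0255 and 0.0256). The 11 members under the filter, pals-3, pals-7, pals-8, pals-9, pals-11, pals-12, pals-13, pals-20, pals-28, pals-29 and pals-40, had 8 to 73 reads each over all 18 libraries. Of these, pals-29 had no read in the 6 N2 libraries and 6, 7, 5 and 8 reads in lin-65 EV, lin-65 cco-1, met-2 EV and met-2 cco-1, and pals-9 had 1 and 3 reads in N2 against 19, 10, 9 and 9 reads.

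RNAi against cco-1 changed no pals gene past the threshold in any strain. In N2, 0 of 36 members were called, where 0.841% of tested genes were; at an unadjusted p under 0.05, 3 members were higher and 1 lower, where 17.9% of tested genes passed. DESeq2 also called 0, where 3.76% of its tested genes were. The 4 members were pals-15, pals-18 and pals-6, higher, and pals-17, lower. The repressor gene pals-17 held 23.3, 23.0 and 22.5 CPM on EV and 12, 16.1 and 11.3 CPM on cco-1 RNAi, a difference of -0.81 ± 0.26 without overlap (adjusted p = 0.159). The level of pals-15 was 0.148, 0.0678 and 0.109 CPM on EV and 1.18, 0.485 and 0.307 CPM on cco-1 RNAi, without overlap (2.56 ± 0.78, adjusted p = 0.140). The values of pals-18 and pals-6 were 0.76 ± 0.32 and 1.37 ± 0.59 (adjusted p = 0.242 and 0.245), each without overlap. Without the libraries that stood apart, neither of which is an N2 library, these 4 members were called (adjusted p = 0.0190 for pals-15, 0.0445 for pals-18, 0.0214 for pals-6 and 0.0198 for pals-17), and the share of tested genes called higher and lower rose to 11.6% and 6.91%. With only the 2 N2 groups in the fit pals-17 alone was called (adjusted p = 0.0160), where 20.4% of tested genes were.

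In lin-65, 0 of 36 members were called on cco-1 RNAi against EV, where 0.715% of tested genes were. An unadjusted p under 0.05, which 12.4% of tested genes had, was found for pals-15 and pals-25, higher, and pals-17, lower. The lin-65 levels of pals-17 were 27.4, 16.1 and 21.7 CPM on EV and 15.6, 11 and 8.19 CPM on cco-1 RNAi, without overlap (-0.92 ± 0.26, adjusted p = 0.159), and DESeq2 called it alone (adjusted p = 0.0414), where 1.88% of its tested genes were called. In met-2, 0 of 36 were called, where 1.11% of tested genes were; pals-34 alone passed an unadjusted p of 0.05, as 9.8% of tested genes did (1.81 ± 0.57, adjusted p = 0.201), with 0.821, 0.565 and 0.771 CPM on EV and 4.90, 1.77 and 0.771 CPM on cco-1 RNAi. Replicate 1 of met-2 on cco-1 RNAi held the highest of these levels, and without both libraries that stood apart the pals-34 value was 0.87 ± 0.46 (adjusted p = 0.479). DESeq2 called 0 in met-2, where 2.22% of its tested genes were. The met-2 value of pals-17 was -0.28 ± 0.26 (adjusted p = 0.784). The difference in the cco-1 response between a mutant and N2 was called for 0 members in lin-65 and 0 in met-2, and 0 members passed an unadjusted p of 0.05 in either, where 3.18% and 17.2% of tested genes did; edgeR called no tested gene in either test. DESeq2 called 0 members there, where 0.0251% and 1.02% of its tested genes were called. For pals-17 these differences were -0.11 ± 0.37 and 0.53 ± 0.37, and for pals-14 they were 0.49 ± 0.73 and 1.12 ± 0.73 on the log2 scale.

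**Figure D4:**
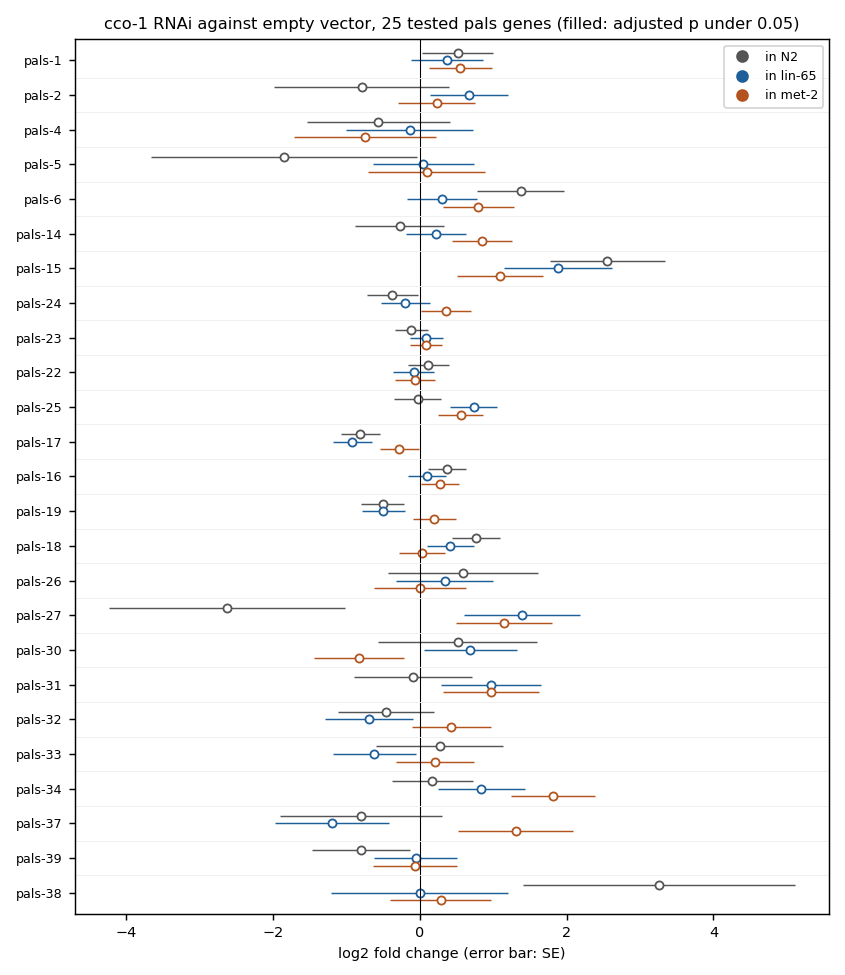
Log2 fold change (points) with its SE (bars) on cco-1 RNAi against EV for the 25 tested pals genes in N2 (grey), lin-65 (blue) and met-2 (orange). No point is filled, which would mark an adjusted p under 0.05; pals-17 lies left of 0 in N2 and lin-65 and pals-15 right of 0 in all 3 strains. The fitted N2 values of pals-5, pals-27 and pals-38 rest on a group with no reads and are not bounds.

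Set directly against each other on EV, the mutants differed in no pals gene by edgeR: 0 of 36 members were called, where 28.8% of tested genes were, and DESeq2 called 0, where 30.8% of its tested genes were. At an unadjusted p under 0.05, which 41.8% of tested genes passed, pals-15 was higher and pals-19 lower in met-2, with log2 differences of 1.61 ± 0.74 and -0.73 ± 0.29 (adjusted p = 0.107 and 0.0645). Leaving out lin-65 EV replicate 2 or lin-65 cco-1 replicate 1 brought pals-19 past the threshold (adjusted p = 0.0354 and 0.0450). For pals-14 the difference was -0.59 ± 0.41, for pals-6 -0.51 ± 0.49, for pals-33 0.27 ± 0.53 and for pals-2 0.14 ± 0.54.

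Genes that lie among the pals genes were also read. Within the 6 clusters the annotation places 8 measured genes of other families, of which 4 were tested on EV. All lay in the chromosome III and IV clusters, and none in the chromosome I or the chromosome V cluster. Of the tested ones, C29F9.2, C29F9.12 and Y82E9BR.5 lay in clusters with no pals call on EV, and B0284.3 in that of pals-26. Genes among the raised chromosome I members were thus not read. None was called in lin-65 and 1, C29F9.12, was lower in met-2 (-0.76, adjusted p = 0.0389); it overlaps pals-24 on the opposite strand.

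Some response genes outside the family were also higher in the mutants. A list of 21 measured genes of the intracellular pathogen response, of which 15 were tested, gave 5 higher and 0 lower in lin-65 on EV, and 7 higher and 0 lower in met-2, where 1.07% and 15.3% of all tested genes were called higher. On cco-1 RNAi the counts were 4 and 10 higher and 0 lower, where 0.635% and 11.2% of tested genes were called higher. The cco-1 response gave 0 calls in each strain; at an unadjusted p under 0.05 it gave 1 higher and 1 lower in N2, 1 and 3 in lin-65, and 3 and 1 in met-2, and DESeq2 called 1 lower in N2 and 0 in the mutants. The most significant was eol-1, which encodes a protein related to the decapping enzyme DXO, at 0.297, 0.474 and 0.436 CPM in N2 EV, 3.70, 2.95 and 2.88 CPM in lin-65 EV and 3.93, 4.73 and 3.09 CPM in met-2 EV. These groups did not overlap, and the log2 fold changes were 2.89 ± 0.35 (adjusted p = 0.000145) and 3.20 ± 0.34 (adjusted p = 1.91e-05). The F-box gene fbxa-158 rose by 4.34 ± 0.77 and 4.42 ± 0.77, and B0507.8 by 3.11 ± 0.51 and 2.86 ± 0.51 (adjusted p = 0.00592, 0.000926, 0.00267 and 0.000991). F57G4.11 held 1 read in the 3 N2 EV libraries, against 0.757 to 1.07 CPM in lin-65 EV and 0.343 to 0.703 CPM in met-2 EV (adjusted p = 0.00267 and 0.00271). M01G12.9 rose in lin-65 alone among the EV calls (1.27 ± 0.28, adjusted p = 0.0282; met-2 0.47 ± 0.28, adjusted p = 0.204), and it was lower in met-2 than in lin-65 on EV (-0.80 ± 0.27, adjusted p = 0.0368).

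Of the 6 tested ubiquitin ligase genes on that list, fbxa-158 among them, 1 was higher in lin-65 and 2 in met-2 on EV, and 1 and 4 on cco-1 RNAi. The cullin gene cul-6 rose by 0.75 ± 0.28 in met-2 on EV (adjusted p = 0.0467) and by 1.09 ± 0.27 on cco-1 RNAi (adjusted p = 0.00944), and its lin-65 values were 0.52 ± 0.28 and 0.37 ± 0.28 (adjusted p = 0.563 and 0.739). The Skp1-related genes skr-3 and skr-5 rose in met-2 on cco-1 RNAi (0.64 ± 0.18 and 2.19 ± 0.58, adjusted p = 0.0184 and 0.0132), and skr-4 and the RING gene rcs-1 were called in no comparison with N2. Of 5 regulators of the response outside the family, sta-1, which encodes a STAT protein, rose in met-2 on EV (1.05 ± 0.32, adjusted p = 0.0209). Its lin-65 value there was 0.31 ± 0.32 (adjusted p = 0.845). The bZIP factor gene zip-1, the RIG-I-like receptor gene drh-1, pnp-1 and lin-35 were not called against N2 in the edgeR fit of all 18 libraries. Without both libraries that stood apart, 2 of the 5 were higher and 1 lower in met-2 on EV. DESeq2 called 1 higher and 1 lower there. Every met-2 EV library lay above every N2 EV library for drh-1 (lowest 24.6, highest N2 16.5 CPM). For lin-35 every met-2 EV library lay below the lowest N2 EV level of 19.1 CPM.

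**Figure D5:**
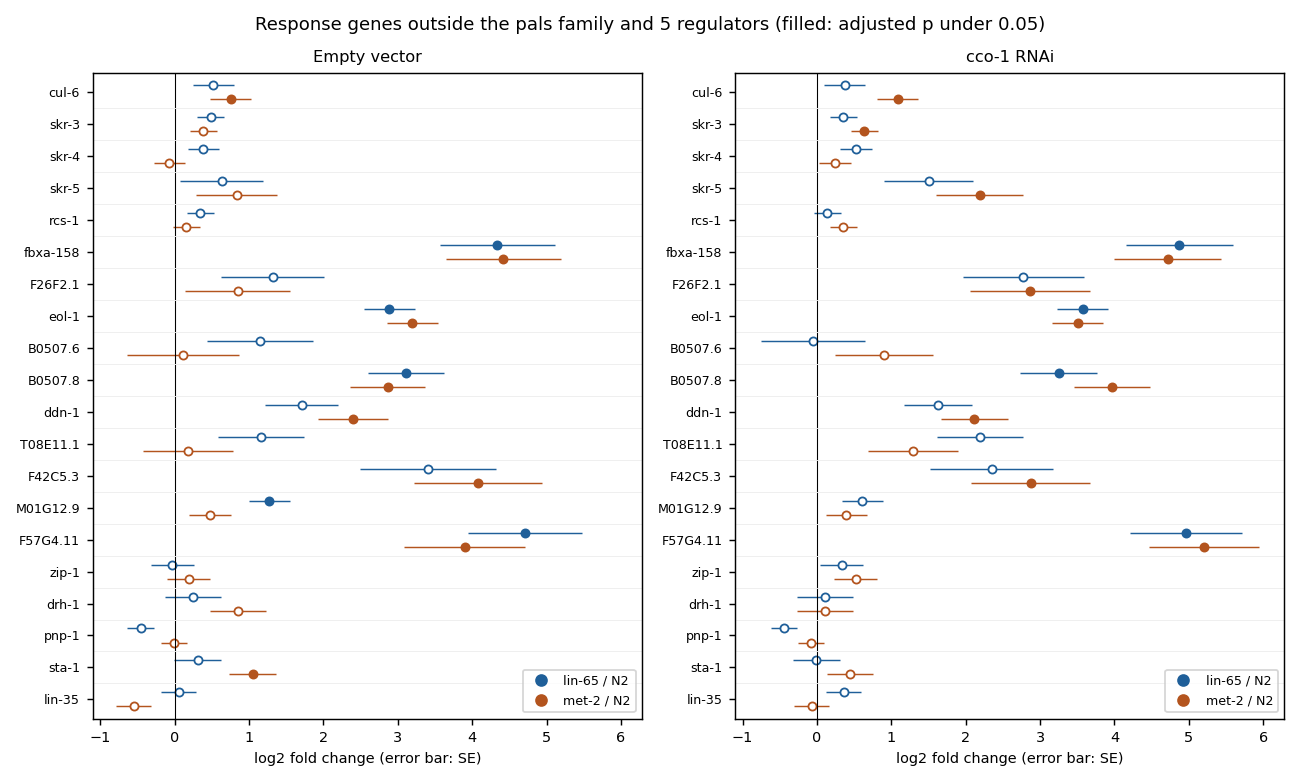
Log2 fold change (points) with its SE (bars) in lin-65 (blue) and met-2 (orange) against N2 for 15 response genes outside the pals family and, from zip-1 down, 5 regulators, on EV at the left and cco-1 RNAi at the right; filled points have an adjusted p under 0.05. Filled points lie right of 0; fbxa-158, eol-1, B0507.8 and F57G4.11 are filled in all 4 comparisons.

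Tissue markers moved with the strains as well. The summed level of 6 intestine markers was 2397 to 4388 CPM in N2 EV, 1982 to 4366 CPM in lin-65 EV and 3728 to 3971 CPM in met-2 EV, so the ranges overlapped. Most of each of these sums was act-5. In lin-65 on EV, 0 of these 6 markers were called, and in met-2, 1 was higher, ges-1. Without both libraries that stood apart, 3 were higher in met-2 on EV, and DESeq2 called 0 there. For elt-2, ges-1 and pept-1 every met-2 EV library lay above every N2 EV library, while act-5, ifb-2 and elt-7 overlapped. The lowest met-2 EV levels of elt-2, ges-1 and pept-1 were 27.3, 58.1 and 124 CPM. Their highest N2 EV levels were 24.7, 45.4 and 103 CPM. The 4 oocyte and yolk markers summed to 2951 to 6086 CPM in N2 EV, 504 to 1483 CPM in lin-65 EV and 935 to 2211 CPM in met-2 EV, with 2 and 1 of the 4 called lower. On EV most of each sum was vit-2 and vit-6, the yolk genes. Those called were vit-2 and vit-6 in lin-65 and vit-2 in met-2. The oocyte markers rme-2 and oma-1 were not called on EV. In lin-65 EV both overlapped N2 EV, with rme-2 at 56.1 to 135 against 71.9 to 150 CPM. In met-2 EV oma-1 held 16.3 to 32.6 CPM against 38.9 to 54.3 CPM in N2 EV. In met-2 on EV, 3 of 4 pharynx, 2 of 4 body wall muscle and 2 of 5 neuron markers were higher, and 3 of 5 germline and 4 of 5 sperm markers lower, while in lin-65 0 markers of these 5 lists were called. Of the 5 hypodermis and cuticle markers on EV, dpy-7 was higher and col-19 lower in met-2, and 0 were called in lin-65. Of all tested genes, 15.3% were called higher and 15.3% lower in met-2 on EV, and 1.07% and 0.351% in lin-65. On cco-1 RNAi the oocyte and yolk markers summed to 2502 to 5940 CPM in N2, 275 to 578 CPM in lin-65 and 97.7 to 175 CPM in met-2. Of these 4 markers, 2 were called lower in lin-65 and 4 in met-2. In met-2 on cco-1 RNAi 1 of 4 pharynx markers was higher. There 2 of 5 germline, 1 of 5 sperm and 1 of 5 hypodermis and cuticle markers were lower. Of all tested genes on cco-1 RNAi, 11.2% were called higher and 9.59% lower in met-2, and 0.635% and 0.477% in lin-65. The parts of tissue make-up and of developmental stage in the pals differences were not tested.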

How the data were processed

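Raw read counts per gene model, 1 column per library, were deposited by the authors for 18 polyA RNA libraries; they were checked to be whole numbers. Per the labels' protocols, the Epicentre ScriptSeq v2 kit was used; the submitters' processing notes name Bowtie 0.12.7 and DESeq. Neither the build and annotation nor the counter and its strand option is given in the sources used here. Sequence names were matched to the WBcel235 annotation (Ensembl release 115) for 20071 of 20505 gene models; the 434 others, which hold 0.159% of counts, stayed in the fit. Groups came from the labels' titles. All 18 libraries entered 1 edgeR 4.0.16 quasi-likelihood fit of 6 group means in R 4.3.3, with TMM scaling and the filterByExpr filter (minimum count 10), which kept 15110 genes; 10 contrasts were tested, each adjusted by Benjamini-Hochberg with a threshold of 0.05. SEs are the log2 fold change divided by the root of F. CPM are deposited counts per 1e6 counts of TMM-scaled library size. Pooled ratios divide summed reads by summed counts, with exact 95% intervals; the floor for a group with no read is 3 counts. The fit was tested on simulated data. The changed genes there had higher mean levels than most called pals members, and no outlying library was simulated, so that test does not cover the low members. Alternatives were another scaling, no filter, DESeq2 1.42.0, a replicate block, only the groups compared, 16 libraries without the 2 that stood apart, and each library left out. No libraries of a group agreed within counting noise. Library values were printed for pals-5, pals-22, pals-25 and the 12 called members with the smallest adjusted p; other genes are given by group or were chosen after their values were seen. The members, gene lists and tests were chosen with earlier results of these data known.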

Additional observations from a re-analysis of the deposited data

How the results depend on the processing

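Of 25 named pairs of a pals gene and a comparison called in the report, 12 kept the call under every alternative in which the gene was tested. Over 584 such alternatives the call was kept in 497, lost in 87 and reversed in 0. Of the 24 alternatives, pals-2 was tested in 22 and pals-27, pals-30 and pals-38 in 23. An alternative without a test of the gene made no call and is not among the 87. The count of members called ranged from 1 to 5 for lin-65 on EV, 6 to 10 for met-2 on EV, 1 to 4 for lin-65 on cco-1 RNAi, 4 to 12 for met-2 on cco-1 RNAi and 0 to 1 for met-2 against lin-65 when each library was left out in turn, and stayed at 0 for the 3 cco-1 responses and the 2 differences between them. With RLE size factors in edgeR the 4 counts against N2 were 3, 7, 2 and 11, in the same order, and without a filter on low counts they were 3, 7, 3 and 11. With only the groups compared they were 1, 6, 3 and 2, and the N2 cco-1 response had 1 call. With DESeq2 they were 4, 7, 6 and 14, and the lin-65 cco-1 response had 1. In the 16 libraries without lin-65 EV replicate 1 and met-2 cco-1 replicate 1 they were 4, 12, 6 and 7, and the N2 cco-1 response had 4. With a replicate block the counts were 3, 8, 4 and 12, and 0 in the other 6 comparisons. These counts take both directions: the met-2 EV counts of 6 and 12 include pals-34, which was lower. The share of all tested genes called is given above only for DESeq2, the 16 libraries and some fits of only the groups compared. The other counts have no such share beside them and are not read as a result about the members. The numbers were not taken to pair the libraries: of 45 correlations between same-numbered libraries of different groups 22 exceeded 0.1, from -0.28 to 0.687, and 13 of 18 libraries correlated best with their own number. The highest, 0.687, was between the 2 libraries that stood apart, and the next, 0.530, between replicates 2 of the same groups. The values are thus partly set by those libraries and do not show a pairing in the design. Library size limits the low members: 3 reads in 1 library were 0.153 to 0.510 CPM, and the size of a difference from a group with no read has only a lower bound. The cause of the differences between alternatives was not tested.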
